A study of Mus musculus with 12 samples.

Results

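Dendritic cell nuclei were examined in single-nucleus RNA sequencing libraries of mouse adipose tissue. They were chosen by their own UMI counts (a UMI marks 1 captured RNA molecule) of 5 dendritic genes, Flt3, Zbtb46, Clec9a, Cd209a and Itgax. A nucleus was taken when the 5 genes together had at least 2 UMIs and at least 1 of those came from Flt3, Zbtb46 or Clec9a. The sum also had to exceed each of 5 exclusion sums, which were built from 16 genes of resident macrophages, lipid-associated macrophages, adipocytes, endothelial and stromal cells, and lymphocytes. Among 106898 nuclei that had 300 or more genes and no more than 10% of UMIs from mitochondrial genes, 895 met the rule, a share of 0.837% with an exact 95% interval from 0.783 to 0.894%. Since measured values chose them, the levels of the 21 rule genes are given as a description only.

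The series held 12 libraries, with 1 library in each group and so no replicate. All mice were male C57BL/6J mice on normal chow, and the labels do not say how many animals went into a library. Of the depots, mPRAT and lPRAT are read here as the medial and lateral parts of perirenal fat, iBAT as brown fat between the shoulder blades and iWAT as inguinal white fat, the common meanings of these names. mPRAT and iBAT were sampled at 1, 2 and 6 months and lPRAT at 2 and 6 months, all at a room temperature of 22 °C, with one further library of each of mPRAT and iBAT from 6-month mice kept at 4 °C for 3 days. iWAT was sampled at 6 months at both temperatures. These ages are those of the titles; the characteristics give 4, 8 and 16 weeks, so the oldest group is 6 months in one place and 16 weeks in the other. Total UMIs per library ran from 5461133 to 87035783, and the median UMIs per kept nucleus from 880 to 6300. Because each group is 1 library, differences between ages, depots and temperatures are described with intervals that cover counting error only, and none of them has a test.

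Dendritic cells take up antigen in tissues and show it to T cells. Conventional type 1 dendritic cells (cDC1) depend on the transcription factors Irf8 and Batf3, carry the receptors Clec9a and Xcr1, and are known for presenting antigen from dead cells on MHC class I. Conventional type 2 cells (cDC2) carry Sirpa and Cd209a, mature or migratory cells switch on Ccr7 and leave for the lymph node, and plasmacytoid cells carry Siglech and depend on Tcf4. In adipose tissue they sit among far more numerous macrophages, which share many of their genes.

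MHC class II genes, which encode the molecules that present antigen to CD4 T cells, differed between depots in the results below, so the windows upstream of 3 of them are shown. Ciita encodes the coactivator that drives these genes through a conserved promoter module, which ends in the Y box. The Y box core CCAAT was searched on both strands (ATTGG on the other) in windows from 250 bases before to 50 bases after the RefSeq start site on GRCm38.p6. It was found in 7 of the 7 MHC class II genes with a window and in 41.1% of all 27025 genes with one (11096 genes). H2-Ab1, Cd74 and Ciita were not among the 7. The short core is not particular to class II. It was also in 6 of 7 genes of cell division, 6 of 8 MHC class I and cross-presentation genes and 4 of 5 resident macrophage genes. In 4 B cell and 6 T cell genes it was found in 0. The sequences run 5′ to 3′ on the gene's own strand, and capitals mark the matches. H2-Aa (minus strand) lies at chr17:34287774-34288073, H2-Eb1 (plus strand) at chr17:34305617-34305916 and H2-DMb1 (plus strand) at chr17:34152941-34153240.
H2-Aa: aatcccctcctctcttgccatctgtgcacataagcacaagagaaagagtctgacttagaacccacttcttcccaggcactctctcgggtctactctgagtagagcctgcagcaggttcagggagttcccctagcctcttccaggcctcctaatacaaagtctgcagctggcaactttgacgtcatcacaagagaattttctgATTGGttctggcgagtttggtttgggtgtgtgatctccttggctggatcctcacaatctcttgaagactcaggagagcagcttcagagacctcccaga
H2-Eb1: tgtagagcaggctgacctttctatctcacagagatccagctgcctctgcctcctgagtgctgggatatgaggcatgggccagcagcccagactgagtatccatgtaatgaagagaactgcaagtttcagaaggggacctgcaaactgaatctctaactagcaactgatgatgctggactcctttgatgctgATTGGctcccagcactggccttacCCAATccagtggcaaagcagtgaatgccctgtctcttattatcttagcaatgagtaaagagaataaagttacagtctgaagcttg
H2-DMb1: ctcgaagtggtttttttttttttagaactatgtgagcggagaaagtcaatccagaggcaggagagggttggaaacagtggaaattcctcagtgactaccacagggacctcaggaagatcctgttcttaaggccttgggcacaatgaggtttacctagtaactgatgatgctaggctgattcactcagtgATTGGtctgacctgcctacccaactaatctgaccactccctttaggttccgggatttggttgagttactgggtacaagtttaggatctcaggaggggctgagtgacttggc
The match starts 48 bases before the start site in H2-Aa and 61 bases before it in H2-DMb1, and H2-Eb1 has one at 59 and another at 35 bases before it. A match is a description of the letters and not a site in use. H2-Aa and H2-Eb1 encode class II chains, and H2-DMb1 a chain of the peptide-loading helper.

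Among the 895 nuclei the label did not hold for those with UMIs of Zbtb46 alone. Zbtb46, a transcription factor of conventional dendritic cells also known from endothelium, had a UMI in 846 of the 895 nuclei and was the only one of the 5 genes found in 588. Flt3, the receptor for the growth factor of dendritic cells, had a UMI in 244 nuclei, Clec9a in 156, the integrin Itgax in 96 and the lectin Cd209a in 16. UMIs of at least 2 of the 5 genes were found in 292 nuclei (164 with 2 genes, 85 with 3, 43 with 4 and 0 with all 5), hereafter the 2-gene nuclei. They are 0.273% of the kept nuclei (interval 0.243 to 0.306%). The other 15 nuclei had UMIs of a single gene other than Zbtb46, and 12 of the 15 had a UMI of the leukocyte gene Ptprc.

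Genes that the rule did not read separated these groups. Ptprc, the pan-leukocyte phosphatase CD45, had a UMI in 87.0% of 2-gene nuclei, in 55.0% of macrophage nuclei and in 92.8% of B cell nuclei (both chosen by the same genes that excluded them), but in 5.95% of nuclei with Zbtb46 alone. Of the 4514 B cell nuclei, 3736 came from 6-month mPRAT at room temperature, so their pooled value speaks mainly for that library. Wdfy4, needed for cross-presentation by cDC1, had a UMI in 67.5% of 2-gene nuclei against 3.06% of Zbtb46-only nuclei. H2-Aa had one in 49.7% and 2.21%, in that order. The endothelial phosphatase Ptprb showed the opposite order, with 1.03% and 40.1%, as did the endothelial cadherin Cdh5, with 1.37% and 25.0%. Adipocyte nuclei, which should lack these genes, gave a background of 2.32% for Ptprc, 0.83% for Wdfy4, 0.95% for H2-Aa and 1.43% for Ptprb, and 16.3% of them had a Zbtb46 UMI. For these leukocyte and antigen presentation genes the Zbtb46-only nuclei were nearer to that background than to the 2-gene nuclei. Median UMIs per library ran from 979 to 3123 in Zbtb46-only, 790.5 to 3882 in 2-gene and 1110 to 6742 in adipocyte nuclei.

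**Figure D1:**
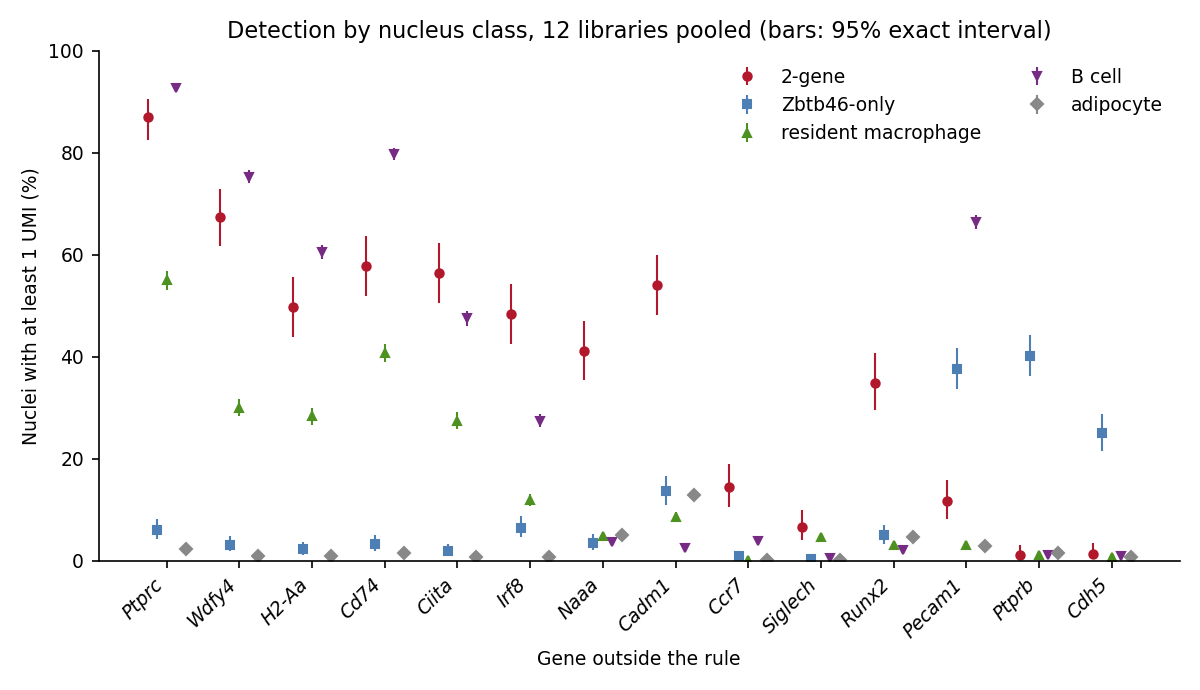
Percentage of nuclei with at least 1 UMI (y axis) of genes outside the rule (x axis), for 2-gene, Zbtb46-only, macrophage, B cell and adipocyte nuclei. Bars are exact 95% binomial intervals. Ptprc is found in 87.0% of 2-gene nuclei and 5.95% of Zbtb46-only nuclei, and Ptprb in 1.03% and 40.1%.

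The leading genes of the Zbtb46-only nuclei were Pcdh15, Csmd1, Cdh13, Etl4, Cyyr1, Adgrl4, Ptprb, Ldb2, Adgrf5 and Unc5c, by their level against all kept nuclei. None of these is a dendritic marker of the lists used here. Their leading genes also differed by depot, with Pcdh15 and Csmd1 first in mPRAT, Sntg1 and Gpm6a in lPRAT, Cyyr1 and Ldb2 in iBAT and Pcdh15 and Etl4 in iWAT. The summed level of the 5 endothelial markers outside the rule was 1466 CPM (UMIs per 1000000) over the Zbtb46-only nuclei, all 5 were detected, and the sum ran from 52.1 to 3798 CPM across libraries. In 2-gene nuclei that sum was 81.6 CPM and in all kept nuclei 131 CPM. The 5 mural markers summed to 1102 CPM in Zbtb46-only nuclei and to 23.6 CPM in 2-gene nuclei. The part of these other cells in the Zbtb46-only nuclei was not tested. No cell type is named for them here, and the results that follow describe the 2-gene nuclei, with all 895 nuclei beside them.

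At the edge of the rule Ptprc was found more often at higher sums, while Ptprb did not follow the sum. Among the 326 nuclei with a sum of exactly 2 UMIs, 17.8% had a Ptprc UMI and 23.6% a Ptprb UMI. Among the 393 nuclei with a sum of at least 4, 54.7% and 24.9% did. Just outside, the 481 nuclei that had a sum of 1 and passed the other conditions had 4.99% for Ptprc and 17.7% for Ptprb, and the 241 nuclei whose sum only equalled an exclusion sum had 7.88% and 44.0%.

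The 2-gene nuclei led with Epsti1, Wdfy4, Adam23, Cadm1, Plxnc1 and Zfp366, by UMIs pooled over libraries against all kept nuclei. Epsti1 was uneven, with 39.4 CPM in the lowest, 2085 in the median and 14913 in the highest of the 6 libraries with at least 10 of these nuclei, and Adam23 ran from 37.3 to 2548 CPM. Cadm1 is an adhesion molecule of cDC1 and Zfp366 encodes the dendritic zinc finger protein DC-SCRIPT. The 11 cDC1 genes outside the rule summed to 7313 CPM in 2-gene nuclei, 286 CPM in Zbtb46-only nuclei and 193 CPM in all kept nuclei. Sums of the mature or migratory list were 2640, 380 and 66.3 CPM, and of the MHC class II list 2674, 82.7 and 187 CPM. Among markers of other cells, 6 resident macrophage genes summed to 68.9 CPM in 2-gene nuclei (130 CPM in all kept nuclei). The adipocyte list was also below its level in all kept nuclei, at 258 CPM (2104). Slightly above that level were the T cell list at 56.1 CPM (39.4), the plasma cell list at 44.3 CPM (43.1) and the neutrophil list at 3.93 CPM (3.24). In the neutrophil list S100a8, S100a9, Retnlg and Ly6g were at 0. Further above it were the lists of adipose stem and progenitor cells at 723 CPM (157), mast cells at 275 CPM (53.0) and monocytes at 267 CPM (74.2). In the progenitor list Dpp4, at a median of 853 CPM over libraries, carried nearly the whole sum, and Pi16, Pdgfra, Col1a1 and Col15a1 had medians of 0 CPM. The part of other cells in the 2-gene nuclei was not tested. The 6 B cell genes outside the rule summed to 390 CPM, with a range from 39.4 CPM in 6-month lPRAT to 1003 CPM in room-temperature iWAT. Of the 5 mast cell markers 2 were detected, with Cpa3, Ms4a2 and Fcer1a at 0.

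The share of 2-gene nuclei was highest in 6-month mPRAT at room temperature, followed by room-temperature iWAT, the mPRAT cold library and cold iWAT, and lowest in iBAT at room temperature. In mPRAT it was 0.111% at 1 month (6 nuclei), 0.146% at 2 months (9), 1.12% at 6 months (128) and 0.608% at 6 months in the cold (23). In lPRAT it was 0.091% at 2 months (3 nuclei) and 0.251% at 6 months (15). In iBAT it was 0.035% at 1 month (4 nuclei), 0.016% at 2 months (2), 0.038% at 6 months (8) and 0.126% in the cold (16). The iWAT libraries had 0.688% at room temperature (57 nuclei) and 0.424% in the cold (21).

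The exact interval of the 6-month mPRAT share, 0.937 to 1.33%, lay above those of every other library. The nearest were the mPRAT cold interval, 0.386 to 0.911%, and that of room-temperature iWAT, 0.522 to 0.891%. The mPRAT cold interval overlapped both iWAT intervals. The 2 iWAT intervals overlapped each other, since the cold one ran from 0.263 to 0.648%. In iBAT the cold interval, 0.072 to 0.205%, overlapped at its low end the upper bound of the room-temperature interval, 0.075%. Other values moved with the 6-month mPRAT share. That library also had the highest share of nuclei that met the lymphocyte conditions, 32.7% for B cells and 14.0% for T cells, against at most 5.58% and 6.30% in the other libraries. Its 2-gene nuclei were the deepest, with a median of 3882 UMIs against 790.5 in 1-month mPRAT. Of its 128 2-gene nuclei 10 had a high doublet score, out of 13 among all 292 2-gene nuclei. The same cut marked 9.32% of all scored nuclei of that library. The part of lymphocyte content, depth and doublets in the share was not tested.

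Thinned to 1000 UMIs per nucleus, which left out shallower nuclei (931 in 6-month mPRAT and 3095 in 6-month iBAT), the share was 0.620% in 6-month mPRAT, 0.418% in the mPRAT cold library, 0.368% in room-temperature iWAT and 0.278% in cold iWAT. After thinning the 6-month mPRAT interval, 0.479 to 0.790%, overlapped those of the mPRAT cold library (0.229 to 0.700%), room-temperature iWAT (0.241 to 0.539%) and cold iWAT (0.139 to 0.497%). The other 8 libraries were at 0.011 to 0.204% after thinning. Per 100 macrophage nuclei there were 42.4 2-gene nuclei in 6-month mPRAT, 11.3 in room-temperature iWAT and 11.0 in the mPRAT cold library, and between 1.43 and 8.82 in the rest. In the mPRAT cold library only 3781 of 11157 barcodes passed the filters, and without the mitochondrial limit its share was 0.305%.

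Over all 895 nuclei the order of the libraries was different. The share of all members was 1.84% in 6-month mPRAT, 1.76% in cold iWAT, 1.31% in 6-month lPRAT and 1.24% in room-temperature iWAT, and 0.218 to 1.06% in the other 8 libraries. Zbtb46-only nuclei were 34.3% of members in 6-month mPRAT and 97.5% in 2-month iBAT, where only 2 nuclei had UMIs of 2 genes. Their share of all kept nuclei ranged from 0.180% in 6-month iBAT to 1.31% in cold iWAT.

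**Figure D2:**
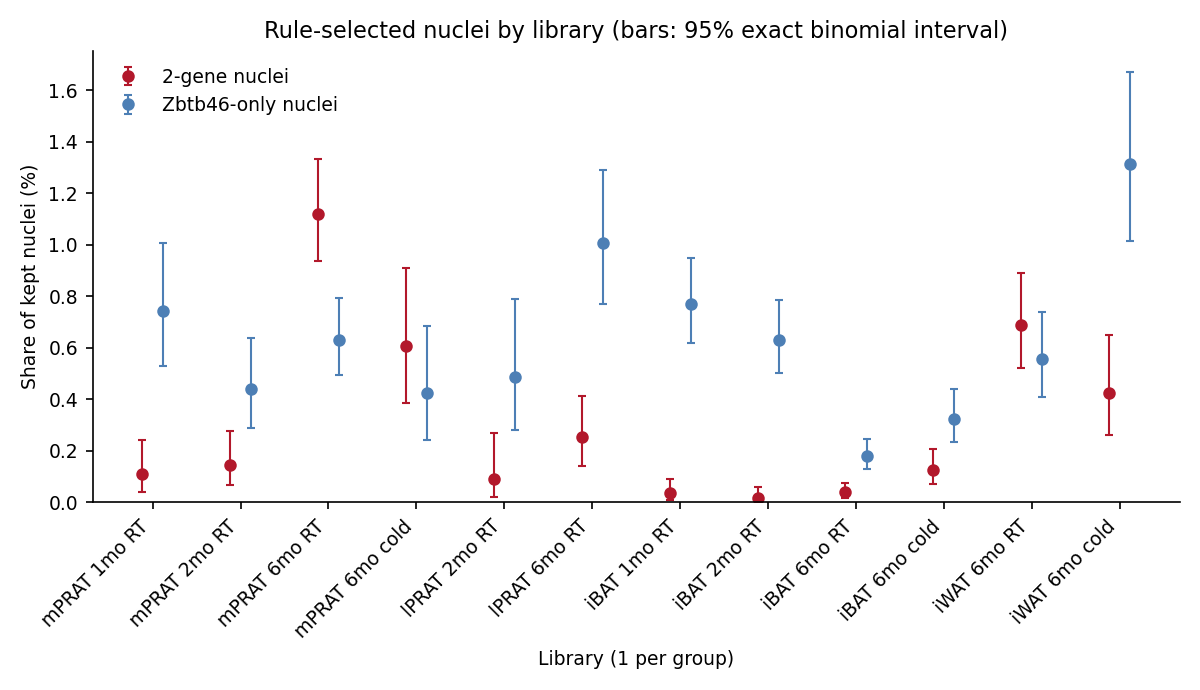
Share of kept nuclei (percent, y axis) in each of the 12 libraries (x axis) for 2-gene nuclei and Zbtb46-only nuclei. Bars are exact 95% binomial intervals, which cover counting error only. The 2-gene share is 1.12% in 6-month mPRAT at room temperature and at most 0.688% elsewhere.

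To see which genes set these nuclei apart from macrophages of the same tissue, UMIs were summed per library and class and compared with edgeR's quasi-likelihood test, with the library as a block and Benjamini-Hochberg adjusted p-values. In all, 6 libraries had at least 10 nuclei of both classes: 6-month mPRAT, lPRAT and iWAT at room temperature, and mPRAT, iBAT and iWAT in the cold. The tested genes took no part in choosing the nuclei but were read in the same nuclei, so a passing test says that they move with the rule genes. A gene at or near 0 in either class entered the test only through its counts in the other, so its direction was largely fixed by the filter on low counts. The same holds for the comparisons of classes that follow. Of 6465 genes tested, 26.7% passed at an adjusted p of 0.05, 10.2% (662 genes) higher and 16.4% (1061 genes) lower in 2-gene nuclei. Without the 6-month mPRAT library these counts were 402 and 665. The median log2 difference over all tested genes was -0.09.

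In 2-gene nuclei most tested cDC1 genes were higher and the tested resident macrophage genes lower. Clec9a, itself a cDC1 gene, was among the genes that chose these nuclei and had a UMI in 150 of the 292. A lean toward cDC1 genes is therefore in part set by the choice. Of 12 cDC1 genes, 9 were tested, and 8 were higher with a list median of 3.74 on the log2 scale. Wdfy4 had 1553 CPM in the lowest, 3790 CPM in the median and 5599 CPM in the highest of the 6 libraries in 2-gene nuclei, and 209, 265 and 341 CPM in macrophage nuclei. The 2 ranges did not overlap, and the log2 difference was 3.52 ± 0.28 (SE, adjusted p = 3.33e-08). Naaa, a lysosomal amidase, had 321, 640 and 1083 CPM against 13.9, 29.2 and 60.8 CPM, a log2 difference of 4.24 ± 0.25 (adjusted p = 1.09e-09). Irf8 had 196, 844 and 1435 CPM against 50.2, 84.0 and 132 CPM, again without overlap, and a log2 difference of 2.87 ± 0.28. Batf3 was nearest to macrophages among the 8, with 112, 134 and 182 CPM against 33.0, 49.2 and 54.5 CPM and a log2 difference of 1.48 ± 0.29 (adjusted p = 0.00065). Tlr3, which senses double-stranded RNA, differed by 3.74 ± 0.35 and Tlr11, which senses a parasite protein, by 5.09 ± 0.48. Gcsam had 64 UMIs in 2-gene nuclei and none in macrophage nuclei, at least 100-fold higher against a floor of 3 UMIs over the group. The ninth gene, Rab7b, differed by 0.60 ± 0.32 and did not pass (adjusted p = 0.203).

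Genes ranked by the size of the difference also held dendritic genes. Zfp366 had 315, 826 and 1553 CPM in 2-gene nuclei (lowest, median and highest library) and 0, 2.69 and 9.21 CPM in macrophage nuclei, a log2 difference of 7.79 ± 0.37 (adjusted p = 1.44e-10). Ly75, the endocytic receptor DEC-205, differed by 7.32 ± 0.38, and the growth factor receptor Kit by 6.34 ± 0.48 while the other mast cell markers were at or near 0. Htr7, a serotonin receptor, had 270 UMIs in 2-gene nuclei and 3 in macrophage nuclei, a ratio of levels of 423 with a counting interval of 143 to 2060. Clnk, an adaptor protein, had 154 and 2 UMIs and a ratio of 362 (98.5 to 3016). With Gcsam, Cacnb3, Dscam, Mab21l3 and Adam23 these were the 10 genes with the largest positive differences.

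The 10 largest differences in the other direction were C1qc, Hacd4, Ms4a8a, Cd209g, Fcna, Ms4a6d, C3ar1, Tfec, C1qtnf1 and Pdgfc. The complement gene C1qc had 1189 UMIs in macrophage nuclei and none in 2-gene nuclei, at least 84.3-fold lower. All 6 tested genes of the resident macrophage list were lower, with a median of -5.58, among them the receptor Csf1r at -4.68 ± 0.43 and the scavenger receptor Stab1 at -6.96 ± 0.44. Macrophage nuclei were chosen by Mrc1, F13a1 and Cd163, so their markers are high there by choice.

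**Figure D3:**
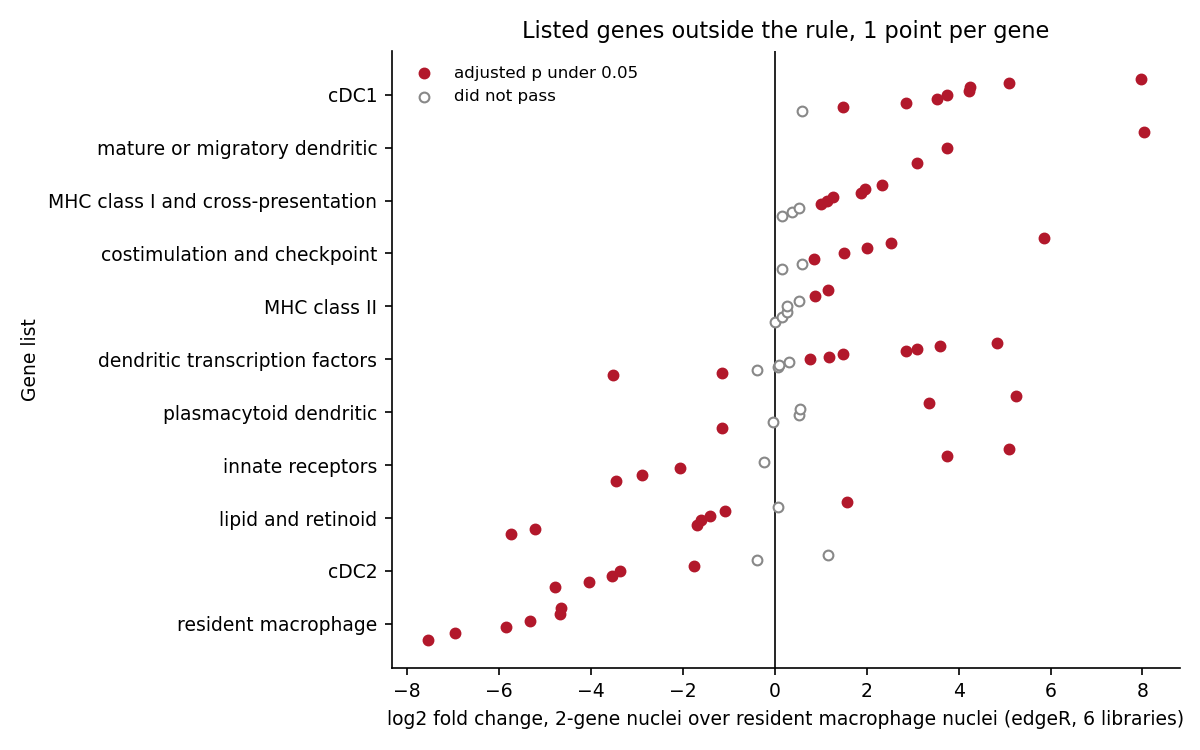
Log2 difference of 2-gene nuclei against macrophage nuclei (x axis) for each tested gene (points) of the gene lists (y axis), from the edgeR fit over 6 libraries; filled points passed an adjusted p of 0.05. The cDC1 list has 8 of 9 tested genes higher, and the resident macrophage list 6 of 6 lower.

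The cDC2 list went the opposite way from the cDC1 list. Its rule gene Cd209a could not admit a nucleus without Flt3, Zbtb46 or Clec9a, so this contrast is also in part set by the choice. Of its 12 genes, 7 were tested and 5 were lower in 2-gene nuclei, none higher. The lectins Mgl2 (-4.78 ± 0.46), Clec10a (-3.36 ± 0.44), Clec4a2 (-3.53 ± 0.52) and Cd209d (-4.05 ± 0.61) and the inhibitory receptor Sirpa (-1.75 ± 0.40) were the 5. Macrophages also carry these lectins. Tnip3 and the transcription factor Irf4 did not pass, with differences of 1.16 ± 0.56 and -0.37 ± 0.45.

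Most tested genes of maturation and of T cell contact were higher as well. Of the 12 genes of the mature list only 3 were tested, and all 3 passed: Cacnb3 (8.03 ± 0.53), Traf1 (3.75 ± 0.43) and the NF-kappa-B subunit Relb (3.10 ± 0.39). Cacnb3 had at most 2.05 CPM in macrophage nuclei of any of the 6 libraries, so its direction was largely fixed by the filter. Ccr7, Fscn1 and Slco5a1 were among the listed genes that were not tested. Among 7 tested costimulation and checkpoint genes 5 were higher. Havcr2, which encodes the inhibitory receptor TIM-3, had 60.3, 220 and 907 CPM against 1.24, 2.45 and 11.6 CPM, a log2 difference of 5.86 ± 0.45 (adjusted p = 1.64e-08). The others were Icosl (2.52 ± 0.36), Cd40 (2.01 ± 0.45), Cd274 (1.51 ± 0.52) and Cd83 (0.86 ± 0.27), while Cd86 differed by 0.15 ± 0.28 and did not pass. Cd274 no longer passed without room-temperature iWAT, 6-month lPRAT or the mPRAT cold library (0.92 to 1.51), and Cd83 when 1 of the 6-month mPRAT libraries was left out (0.73 and 0.81).

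Of 9 tested genes for MHC class I and cross-presentation, 6 were higher: the peptide transporter genes Tap1 (2.33 ± 0.31) and Tap2 (1.96 ± 0.29), the immunoproteasome gene Psmb9 (1.88 ± 0.36), the class I coactivator Nlrc5 (1.27 ± 0.29), Tapbp (1.13 ± 0.31) and Erap1 (1.01 ± 0.30). Erap1 no longer passed without room-temperature iWAT (1.05) or mPRAT (0.95). The class I chains H2-K1 and H2-D1 and B2m did not pass, with 0.38 ± 0.30, 0.53 ± 0.25 and 0.17 ± 0.32. Of 7 tested class II genes only Ciita (1.15 ± 0.34, adjusted p = 0.0154) and H2-DMb1 (0.88 ± 0.28, adjusted p = 0.0255) were higher. H2-Aa had 106, 491 and 662 CPM in 2-gene nuclei against 193, 244 and 515 CPM in macrophage nuclei, ranges that overlapped, and a difference of 0.26 ± 0.29. Cd74, the invariant chain, did not pass either (adjusted p = 0.997). Ciita and H2-DMb1 were near the threshold: leaving out cold iBAT, 6-month lPRAT or either 6-month mPRAT library ended both calls (log2 differences of 0.96 to 1.15 for Ciita and 0.81 to 1.00 for H2-DMb1), as leaving out room-temperature iWAT did for H2-DMb1.

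Of 16 dendritic transcription factor genes 13 were tested, 7 higher and 2 lower. Bcl11a, needed for dendritic cell development, had 280, 436 and 813 CPM against 9.52, 13.2 and 31.0 CPM, a log2 difference of 4.83 ± 0.27 (adjusted p = 5.81e-10). Id2 (3.60 ± 0.38), Bcl6 (1.18 ± 0.32) and Cbfb (0.77 ± 0.21) were higher besides Irf8, Relb and Batf3. Zeb2, a transcriptional repressor, was lower at 106, 750 and 1120 CPM against 5577, 6171 and 8205 CPM, a difference of -3.51 ± 0.39. The plasmacytoid factor Tcf4 was lower (-1.16 ± 0.34). Bcl6 no longer passed without room-temperature mPRAT (1.12), nor Tcf4 without cold iBAT or 6-month lPRAT (-1.03 and -0.87).

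Lipid genes were mostly lower. Of 8 tested lipid and retinoid genes, 6 were lower, led by Apoe, which carries lipid in lipoproteins, at 0, 4.80 and 18.1 CPM against 201, 589 and 1875 CPM and a difference of -5.73 ± 0.43. The cholesterol exporter Abca1 (-5.22 ± 0.42), Lpl, Lipa, Pparg and the fatty acid transporter Cd36 followed, while Abcg1 was higher (1.57 ± 0.47). Of 6 tested genes of cell division 3 were higher, Top2a (1.53 ± 0.44), Diaph3 (1.15 ± 0.37) and Cenpp (1.23 ± 0.42), with Mki67 at 0.90 ± 0.44 not passing. Leaving out 1 of the 6-month mPRAT libraries ended the calls of Top2a (1.14 and 1.35) and Diaph3 (0.82), and leaving out 1 of these or 1 of the iWAT libraries that of Cenpp (0.96 to 1.26). Leaving out room-temperature mPRAT or 1 of the iWAT libraries ended those of Abcg1 (1.08 to 1.63) and Cd36 (-0.94 to -0.83). With DESeq2, Abcg1, Cenpp, Diaph3 and Cd274 did not pass. Of 6 tested innate receptor genes 2 were higher, Tlr3 and Tlr11, and 3 were lower, Tlr4 (-3.45 ± 0.41), Tlr7 (-2.89 ± 0.45) and Ddx58 (-2.06 ± 0.40). Dpp4, also a marker of adipose progenitors, was higher at 5.71 ± 0.36, with Kit and Csf2rb (1.63 ± 0.37), the shared receptor chain for GM-CSF.

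With all 895 nuclei in place of the 2-gene nuclei, the comparison with macrophages over 12 libraries gave another set of leading genes. Of 3100 genes tested, 43.7% passed, 20.4% higher and 23.3% lower. The largest positive differences were Ccdc85a (5.20 ± 0.44), Ldb2, Adamts9, Adgrf5, Ccser1, Gfod1, Prickle2, Galnt18, Kalrn and Fbxl7, none of them in a dendritic list. Of the class II genes, Cd74, H2-Ab1 and H2-Aa were lower among 5 tested, and for H2-Ab1 and H2-Aa the sign was the opposite in 2-gene nuclei (0.17 and 0.26), where they did not pass. Of 4 tested cDC1 genes Wdfy4 (2.13 ± 0.21), Cadm1 (3.25 ± 0.42) and Irf8 were higher.

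B cells present antigen through class II as well, and they share Wdfy4 and Bcl11a with dendritic cells. Against B cell nuclei of the same 6 libraries, 32.2% of 1367 tested genes passed, 16.5% (226) higher and 15.7% (214) lower in 2-gene nuclei. B cell nuclei numbered 29 in the mPRAT cold library, 31 in cold iBAT, 60 in cold iWAT and 68 in 6-month lPRAT. Bank1, a gene that chose them, was also at 302 to 946 CPM in macrophage nuclei, and the part of other cells in this class was not tested. All 4 tested cDC1 genes were higher, again in nuclei chosen in part by Clec9a: Cadm1 (5.26 ± 0.47), Naaa (4.80 ± 0.34), Irf8 (2.45 ± 0.40) and Wdfy4 (1.78 ± 0.31). Htr7 (6.68 ± 0.41), Zfp366 (6.19 ± 0.36) and Tbc1d8 (5.81 ± 0.35) had the largest differences. Of 7 tested class II genes only H2-Ob, which tempers peptide loading in B cells, passed, lower by -1.68 ± 0.44, while H2-Aa differed by 0.10 ± 0.32. Spi1 (2.15 ± 0.32), a factor of myeloid cells, was higher, and Bcl11a (-1.41 ± 0.30), Ikzf1 (-0.66 ± 0.22) and Zeb2 (-1.34 ± 0.40) were lower. Ikzf1 did not pass when any of 4 libraries was left out, 6-month mPRAT at room temperature, 6-month lPRAT or either iWAT library (-0.66 to -0.61), and Zeb2 not without 6-month lPRAT (-1.19) or the mPRAT cold library (-1.30). The 4 tested B cell genes were all lower, as the choice of B cell nuclei would set, and BE692007 (-7.03 ± 0.43) was the lowest of all. For all 895 nuclei over 10 libraries, 34.1% of 2287 tested genes passed, 19.4% (443) higher and 14.7% (337) lower, led by Ablim3, Ccdc85a and Prkg1, and without room-temperature iWAT 281 genes were higher.

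The 2-gene nuclei differed among themselves in the markers found in them. A comparison of Clec9a-positive with Cd209a-positive nuclei could not be fitted, because 1 library alone had 5 of both, and Cd209a was found in 16 nuclei. In its place, after these counts had been seen, Clec9a-positive (150) were compared with Clec9a-negative nuclei (142), using those of the 4 libraries with at least 5 of each, mPRAT at 6 months and iWAT at both temperatures. Over all libraries their median depths were 2611 and 3127 UMIs. Clec9a also took part in the choice of nuclei. A nucleus without it had to carry at least 2 of the other dendritic genes, so the split was tied to the rule and cannot by itself set kinds of cell apart. Of 1272 genes tested 8.25% passed, 4.87% (62) higher and 3.38% (43) lower in Clec9a-positive nuclei. These counts depended on single libraries: without room-temperature iWAT they were 39 and 9, without the mPRAT cold library 103 and 127, and without cold iWAT 84 and 65.

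All 5 tested cDC1 genes were higher in Clec9a-positive nuclei. Naaa had 389 UMIs there and 18 in negative nuclei, a log2 difference of 4.52 ± 0.52 (edgeR adjusted p = 0.00115). Rab7b, a small GTPase of endosomes, had 131 and 3 UMIs, a ratio of levels of 51.9 (17.4 to 255), and Cadm1 (3.86 ± 0.50), Wdfy4 (4.08 ± 0.82) and Irf8 (3.12 ± 0.40) followed. The lysosomal enzyme gene Ppt1 (5.15 ± 0.52), the nucleotide sugar receptor gene P2ry14 (4.67 ± 0.76), Clnk, Hdac9, Slco3a1 and Hepacam2 completed the largest positive differences, and Havcr2 (2.65 ± 0.42), Cd86 (1.63 ± 0.40) and Ccr2 (2.45 ± 0.66) also passed. Higher in Clec9a-negative nuclei were Tmem123 (-3.60 ± 0.91), Tmcc3, Samsn1, Gramd1b, Epsti1 (-2.68 ± 0.73), Relb (-2.52 ± 0.50) and the transporter gene Slco5a1 (-2.78 ± 0.68), so 2 of 3 tested mature genes lay on that side. Without room-temperature iWAT, Relb (-2.06), Slco5a1 (-2.13), Tmem123 (-2.79), Gramd1b (-3.05), Epsti1, Hdac9, Cd86 and Ccr2 (1.91) no longer passed, and without cold iWAT Epsti1, Hdac9 and Cd86 did not. None of 5 tested class II genes and none of 5 tested class I genes passed.

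The same nuclei were also counted by marker, as a description. Of the 150 Clec9a-positive nuclei, 135 had a UMI of Wdfy4, 117 of Cadm1, 112 of Irf8, 103 of Naaa and 45 of the chemokine receptor Xcr1, but 7 had one of Ccr7. Of the 142 Clec9a-negative nuclei, 62 had Wdfy4, 41 Cadm1, 29 Irf8, 17 Naaa, 3 Xcr1 and 35 Ccr7, and Relb was found in 29 of the Clec9a-positive and 91 of the negative nuclei. Xcr1 was found in 48 nuclei, of which 45 had Clec9a and 43 Naaa. Ccr7, the receptor that guides mature dendritic cells to lymph nodes, was found in 42 nuclei with a median of 4440 UMIs. Of these, 41 had Relb, 36 Slco5a1, 36 the actin-bundling gene Fscn1 and 27 the amino acid oxidase gene Il4i1, against 1 with Naaa. H2-Aa was found in 8 of the 42 (19.0%, exact interval 8.60 to 34.1%) and in 90 of the 150 Clec9a-positive nuclei (60.0%, 51.7 to 67.9%), at median depths of 4440 and 2611 UMIs. Siglech was found in 19 nuclei, of which 17 had Runx2, a factor of plasmacytoid cells, 13 had Clec9a and 0 had Ccr7 or Xcr1. Only 4 of the 19 had Zbtb46, and a nucleus without it needed 2 of Flt3, Clec9a, Cd209a and Itgax. The count with Clec9a is therefore in part set by the choice. Siglech itself had a median of 15.1 CPM over the 6 libraries in 2-gene nuclei and 28.2 CPM in macrophage nuclei. Cd209a was found in 16 nuclei, 13 of them with H2-Aa and 2 with Clec9a. None of Clec9a, Ccr7, Siglech and Cd209a was found in 89 nuclei, of which 51 had Relb and 42 Slco5a1. Since a marker can be missed at this depth, these counts are of nuclei with a UMI and not of cell states.

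**Figure D4:**
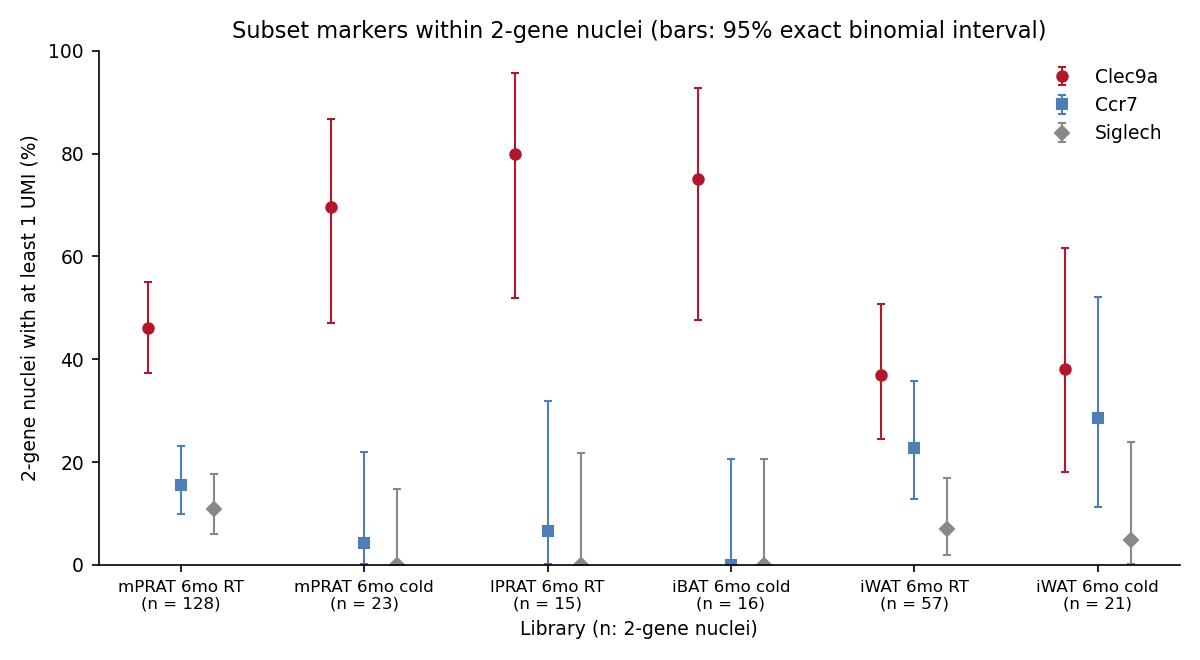
Nuclei with a UMI of Clec9a, Ccr7 or Siglech among 2-gene nuclei (percent, y axis) in each library with at least 10 of them (x axis), with exact 95% binomial intervals. Ccr7 is found in 15.6% of 2-gene nuclei of 6-month mPRAT, 22.8% and 28.6% in iWAT, and 0 of 16 in cold iBAT.

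These markers were unevenly spread over the libraries. Clec9a was found in 59 of 128 2-gene nuclei of 6-month mPRAT, 16 of 23 of the mPRAT cold library, 12 of 15 of 6-month lPRAT, 12 of 16 of cold iBAT, 21 of 57 of room-temperature iWAT and 8 of 21 of cold iWAT. Ccr7 was found in 20, 1, 1, 0, 13 and 6 nuclei of the same libraries. Together, 6-month mPRAT and both iWAT libraries had 39 Ccr7-positive of 206 nuclei (18.9%, exact interval 13.8 to 25.0%), and the other 9 libraries 3 of 86 (3.49%, 0.725 to 9.86%). For Siglech these counts were 19 of 206 and 0 of 86, and a count of 0 allows up to 3.49% of nuclei with a UMI at a limit of 3 counts (exact upper bound 4.20%). The 206 nuclei had a median of 3504.5 UMIs and the 86 a median of 1728 UMIs, and the part of depth in these counts was not tested. Clec9a went the other way, with 88 of 206 (42.7%) and 62 of 86 (72.1%). In all 4 iBAT libraries Clec9a was found in 21 of 30 nuclei and Ccr7 in 0 of 30, which allows up to 10% of nuclei with a UMI at a limit of 3 counts (exact upper bound 11.6%). The 3 libraries of 6-month mPRAT and iWAT were grouped after their counts were seen. They also held most of the nuclei that met the B or T cell conditions, whose part was not tested.

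MHC class II genes were lower in the 2-gene nuclei of both iWAT libraries than in those of the other 4 libraries with at least 10 of them. H2-Aa had 459 CPM in 6-month mPRAT, 523 in the mPRAT cold library, 631 in 6-month lPRAT and 662 in cold iBAT, but 144 in room-temperature iWAT and 106 in cold iWAT. Cd74 had 649, 728, 1222 and 1038 CPM in those 4 libraries and 187 and 136 CPM in iWAT. H2-Ab1 had 374, 616, 1025 and 596 CPM against 52.8 and 60.3 CPM. Ciita had 723, 747, 828 and 1347 CPM against 321 and 136 CPM, on the same side as the other 3 genes. A part of Ciita in their difference was not tested. For each of the 4 genes, the counting intervals of both iWAT libraries lay below those of the other 4 libraries. Ccr7-positive nuclei, with H2-Aa in 19.0% of them against 60.0% of Clec9a-positive ones, were 22.8% and 28.6% of 2-gene nuclei in iWAT and 0 to 15.6% in the other 4 libraries, and their part in this difference was not tested. In H2-Aa the highest iWAT bound was 217 CPM and the lowest bound elsewhere 347 CPM.

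**Figure D5:**
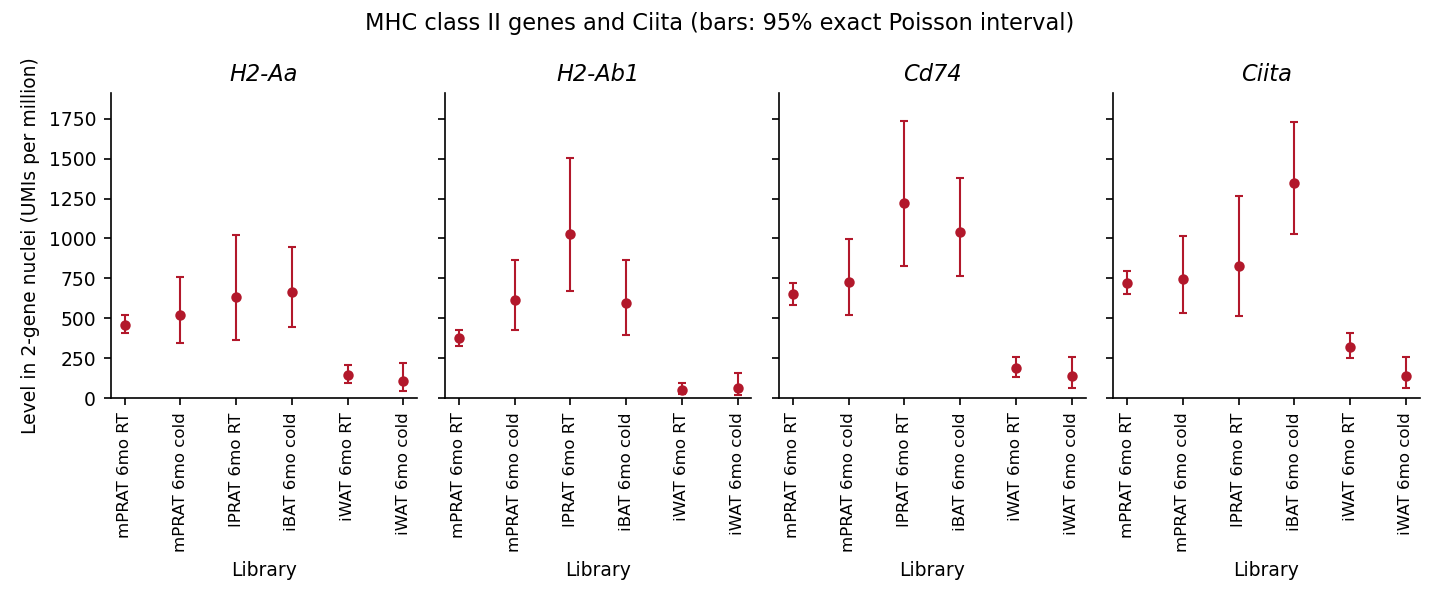
Level in CPM (y axis) of MHC class II genes in 2-gene nuclei of each library with at least 10 of them (x axis), with exact 95% Poisson intervals that cover counting error only. H2-Aa is at 144 and 106 CPM in the iWAT libraries and between 459 and 662 CPM in the other 4.

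Between the 6-month room-temperature libraries of mPRAT (128 nuclei) and iWAT (57), 7 of 8 class II genes with at least 20 UMIs had a ratio interval above 1 and none below. Over all 5727 genes with at least 20 UMIs outside the rule, 15.2% had an interval above 1 and 9.90% below. The ratio was 7.09 for H2-Ab1 (3.88 to 14.4), 3.19 for H2-Aa (2.18 to 4.83) and 2.25 for Ciita (1.73 to 2.96). Of 11 cDC1 genes 6 were above 1, with Xcr1 at 10.0 (80 against 3 UMIs, 3.32 to 49.7) and Irf8 at 2.00 (1.54 to 2.62), and 1 below. Of 10 mature genes 4 were below 1 and none above, Cacnb3 at 0.284 (0.220 to 0.366) and Slco5a1 at 0.407 (0.343 to 0.484), while Il4i1 was at 1.19 (0.784 to 1.86). Of 7 plasmacytoid genes 4 were above 1 and none below, Ccr9 being at 3.14 (2.04 to 5.08). Outside the lists, Csmd1 (in 14 and 2 nuclei) and Prkcb were the other genes highest in mPRAT, and Ghr, Sgcz (2 and 5 nuclei) and Cdh2 (5 and 13 nuclei) the highest in iWAT. Ghr was at 6667 CPM over all members of room-temperature iWAT, above its 2581 CPM in 2-gene nuclei. The B cell and adipocyte gene sums moved with this pair, both being highest in the 2-gene nuclei of room-temperature iWAT. The adipocyte sum was 513 CPM there, against a median of 202 CPM over the 6 libraries with at least 10 of these nuclei. The part of either was not tested.

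Between the cold and room-temperature libraries of mPRAT (23 and 128 2-gene nuclei), most intervals off 1 lay above it for cDC1 and dividing genes and below it for mature and plasmacytoid genes. Of 11 cDC1 genes, 6 had an interval above 1 and none below, against 7.52% above and 7.50% below over all 5107 genes with at least 20 UMIs, with Naaa at 1083 against 463 CPM (ratio 2.34, 1.73 to 3.12), Tlr3 at 429 against 90.4 CPM (4.75, 2.77 to 7.93) and Irf8 at 1027 against 661 CPM. Of the mature genes 7 of 10 and 4 of 7 plasmacytoid genes were below 1, Relb having 3 UMIs against 286 (ratio 0.108, 0.022 to 0.320) and Tcf4 17 against 718 (0.244, 0.142 to 0.394). Of 5 dividing genes 3 were above 1 and 1 below, Mki67 at 411 against 70.5 CPM (5.83, 3.29 to 10.1), Top2a at 3.03 and Diaph3 at 3.37. Genes with the largest ratios were Gstm1, a glutathione transferase, with 33 against 3 UMIs (ratio 114, 35.6 to 579), the inhibitory Fc receptor Fcgr2b at 429 against 45.2 CPM and the chemokine receptor Ccr2 at 635 against 127 CPM (5.02, 3.23 to 7.66). Adam23, Dscam and Plcl1 were the lowest, Adam23 with 2 against 1236 UMIs. Gstm1 was at 616 CPM in the 2-gene nuclei and 601 CPM over all members of the cold library. Its level was thus not particular to 2-gene nuclei. The cold library kept 3781 of 11157 barcodes. Its B and T cell shares were 0.767% and 2.96% against 32.7% and 14.0%, and the part of these differences was not tested.

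In iWAT the 2-gene nuclei of the cold (21) and room-temperature (57) libraries were compared in the same way. Over all 2891 genes with at least 20 UMIs, 11.2% had an interval above 1 and 11.1% below, and the listed genes are too few to set their shares apart from these. Of 6 cDC1 genes 1 was above and 1 below 1, Wdfy4 at 1553 against 1957 CPM (0.793, 0.633 to 0.987). Of 9 mature genes 2 were above and 1 below, with Fscn1 at 1312 against 470 CPM (2.79, 2.07 to 3.76). Class I genes H2-K1 (1.86, 1.38 to 2.49) and B2m (1.62, 1.02 to 2.52) were above 1 and the coactivator Nlrc5 (0.516, 0.317 to 0.806) below. Among the genes lowest in the cold, Sgcz had 1 against 361 UMIs (in 1 and 5 nuclei), Cdh2 2 against 190 UMIs (1 and 13 nuclei), and Ghr, the growth hormone receptor, 256 against 2581 CPM (0.099, 0.057 to 0.161), while Gramd1b (7313 against 1943 CPM, in 8 and 38 nuclei), Itgb8 (5 and 5 nuclei) and Jag1 (3 and 6 nuclei) were the highest. Over all members Ghr was at 643 CPM in cold and 6667 CPM in room-temperature iWAT, above its levels in 2-gene nuclei. In iBAT the 16 cold and 8 room-temperature 2-gene nuclei were too few for a pair by the limit of 20. The same held for the 2-gene nuclei of every pair of ages.

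All members could be compared across age, but Zbtb46-only nuclei were 87.0% of them in 1-month mPRAT and 71.9 to 97.5% in iBAT. In mPRAT at 6 months against 1 month (210 and 46 nuclei), Epsti1 was at 2521 against 62.0 CPM (ratio 40.7, 15.9 to 149), beside Csmd1 and Pcdh15, and Zbtb16, Fam13a and Ppara were lower, Zbtb16 at 107 against 3378 CPM. Zbtb16 was also lower in iBAT at 6 months against 1 month (210 against 3812 CPM, ratio 0.055, 0.031 to 0.092). In iBAT at 6 against 2 months (46 and 81 nuclei), the muscle genes Ttn, Trdn and Mylk4 were lower, Ttn with 0 against 2512 UMIs in 15 nuclei. Cold against room-temperature iBAT (57 and 46 nuclei) showed Nebl, Iigp1, an interferon-inducible GTPase gene, at 565 against 28.0 CPM, and Pdgfd higher, and Tnc and Nav3 lower, the room-temperature UMIs of each of the latter pair coming from 3 of the 46 nuclei. In iWAT, Cyyr1, Mcc and Ldb2 were higher in the cold over all members, and for these 3 genes the 2-gene nuclei gave ratios below 1.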

How the data were processed

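Nuclei of mouse adipose depots were sorted and sequenced with the 10x Genomics 3′ chemistry, per the labels' protocols. The deposited files hold raw UMI counts of each gene in each barcode, made by the authors with Cell Ranger 7.0.0, per the submitters' processing notes, which name mm10 as the build. All barcodes in the files had at least 500 UMIs, and 32285 gene rows were read.

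Nuclei with 300 or more genes and no more than 10% of UMIs from mitochondrial genes were kept, 106898 of 119035 barcodes. The members and the gene lists were chosen with earlier results of these data known. The 2-gene nuclei are a stricter alternative of the rule. Doublets were kept; scrublet scores (scanpy 1.11.5) were used only in an alternative, which removed the highest scores at 0.8% per 1000 nuclei, since scrublet's own threshold marked 0 or 1 nuclei in 6 libraries. Of the members 37 and of the 2-gene nuclei 13 had such a score. Over 66 pairs of libraries at most 0.671% of the smaller library's kept barcodes were shared, and 0 member barcodes.

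UMIs were summed per library and class in libraries with at least 10 nuclei of both classes (5 for Clec9a-positive and -negative nuclei) and tested with edgeR 4.0.16 in R 4.3.3 (TMM, filterByExpr, quasi-likelihood, library as block, Benjamini-Hochberg). Rule genes stayed in the fit but out of the counts. The test was checked on simulated counts. DESeq2 1.42.0 was an alternative. Named genes are those of the rule and the lists, and the 10 outside the rule with the largest log2 difference in each direction among those with an adjusted p under 0.05 and the same direction in every library fitted, leaving out mitochondrial, Gm and Rik names. Between single libraries with at least 20 members each, the 3 genes with the largest ratio in each direction (100 CPM added to both) are named, among genes with at least 20 UMIs and an exact ratio interval that excludes 1; one gene that this rule names is not reported here. Room-temperature 6-month mPRAT enters several of these pairs, which therefore share nuclei. Intervals are exact 95% intervals (Clopper-Pearson, Poisson or conditional binomial) and, like floors of 3 counts, cover counting error only. In sums over nuclei, fewer cells of a kind and less RNA per cell cannot be told apart. Promoter windows come from RefSeq on GRCm38.p6.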

Additional observations from a re-analysis of the deposited data

Results flagged for a closer look

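The share of nuclei that met the rule differed in direction with cold among the 3 depots that have a cold library. Over all members, of which Zbtb46-only nuclei were 74.7% in cold iWAT and 71.9% in cold iBAT, the cold share minus the room-temperature share was -0.782 percentage points in mPRAT, 0.232 in iBAT and 0.514 in iWAT. Thinned to 1000 UMIs per nucleus these differences were -0.332, 0.247 and 0.180 points. For 2-gene nuclei they were -0.513 points in mPRAT, 0.0884 in iBAT and -0.264 in iWAT, and -0.202, 0.0612 and -0.0906 points after thinning, so iWAT, where the exact intervals of both temperatures overlapped, changes sign between all members and 2-gene nuclei. With 1 library per group the difference between depots was not tested.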

How the results depend on the processing

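The pooled share of 0.837% was 0.273% with at least 2 genes, 0.532% with at least 3 UMIs and 0.528% thinned to 1000 UMIs. With no filter on low counts, the comparison of all members with macrophage nuclei gave 1847 genes higher and 1637 lower, that of 2-gene nuclei 1681 lower, all members against B cell nuclei 1889 and 692, 2-gene nuclei against B cell nuclei 767 and 782, and Clec9a-positive against negative nuclei 143 and 156. With at least 3 UMIs the last gave 102 lower, in 3 libraries, since the mPRAT cold library no longer had enough nuclei. With at least 2 genes, the comparison with B cell nuclei gave 226 and 214 in place of 443 and 337. Leaving out 1 library at a time gave 561 to 683 genes higher and 659 to 806 lower for all members against macrophage nuclei, 402 to 710 and 665 to 1045 for 2-gene nuclei, 281 to 489 and 278 to 410 for all members against B cell nuclei, 154 to 319 and 156 to 289 for 2-gene nuclei, and 39 to 103 and 9 to 127 for Clec9a-positive against negative nuclei. Without the library as a block, the 2-gene comparison with macrophage nuclei gave 720 and 1024, and no comparison's count moved by over 1.5 times. DESeq2 gave 591 and 1107 there.

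Signs that turned when all members were replaced by 2-gene nuclei were, against macrophage nuclei, Ccr2 (0.73), Cd36 (-1.09), Cd83 (0.86), Cd86 (0.15), Ciita (1.15), Ebf1 (-1.33), Fabp4 (-0.81), Fbxl7 (-2.59), H2-Aa (0.26), H2-Ab1 (0.17), Ikzf1 (0.31), Notch2 (0.066), Pparg (-1.42), Rora (-1.72), Spi1 (0.092) and Tcf4 (-1.16). Against B cell nuclei they were Fabp4 (-1.08), H2-Aa (0.10), Pparg (-0.77) and Tcf4 (-0.41). Between libraries they were Cyyr1 (-0.13), Mcc (-0.41) and Ldb2 (-0.068) for cold against room-temperature iWAT and Tenm2 (-0.045) for mPRAT against iWAT. The cause was not tested. The comparison of Clec9a-positive with Cd209a-positive nuclei could not be fitted, and that of Clec9a-positive with negative nuclei was added after the data were seen. The stricter rule of 2 genes was chosen earlier, but the choice to describe them first, and the other settings tried on them, came after the data were seen. Depth and nucleus number limit room-temperature iBAT and the 1- and 2-month libraries, which held 2 to 9 2-gene nuclei each.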

Other observations

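Zbtb46 UMIs were not limited to nuclei with leukocyte genes. Over kept nuclei its level ran from 46.1 to 128 CPM across the 12 libraries, and 16.3% of adipocyte nuclei had a UMI. Flt3 was scarcer and uneven, at 14.4 CPM in 6-month mPRAT, 6.11 CPM in room-temperature and 3.87 CPM in cold iWAT, 3.84 CPM in 2-month lPRAT and 2.31 CPM in the mPRAT cold library, and at most 1.30 CPM in the other 7. Itgax was at 14.4 CPM (366 UMIs) over kept nuclei of 6-month lPRAT and at most 4.23 CPM elsewhere, while that library had 15 2-gene nuclei.

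The ISRE core GAAANNGAAA, a motif read by Irf8 and related factors, was searched on both strands of the same promoter windows. It was found in 3.99% of all genes with a window (1079 genes), in 1 of 9 cDC1 genes (Tlr11), in 2 of 8 class I and cross-presentation genes (B2m and Erap1) and in 0 of 8 mature genes.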
